A study of Mus musculus with 2 samples.

Results

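Mir143, Mir145a, Mir199a-1, Mir199a-2, Mir199b and Mir214 are miRNA genes associated with mesenchyme, the connective and contractile tissue of organs. Their levels were measured by miRNA sequencing in whole liver of mouse embryos. The 6 genes were chosen by name, from the gene names of the mouse annotation, and each has a row among the 1973 gene rows of the count tables. The study held 1 group: healthy, untreated liver of B6NCrl embryos at embryonic day 16.5, males and females pooled. It was sequenced as 2 replicate pools, of which replicate 2 came from 41 embryos and the size of replicate 1 is not given in the labels. The design has no contrast between conditions, so the questions addressed are how abundant each member was, how the members of 1 cluster compare with each other, and how far the pools differed.

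Replicate 2 held 5102289 sense-strand counts over all miRNA genes, and replicate 1 held 5930074. Levels are given in CPM, each library's counts divided by its own total and brought to a common scale. Mir122, the marker miRNA of hepatocytes, was at 214555 CPM in replicate 2 and at 213274 CPM in replicate 1. Both libraries were of whole tissue, in which fewer cells of a type and less RNA per cell cannot be told apart. The tables hold no messenger RNA, so the cells that made the members' miRNAs were not identified. Counts may include PCR copies, and the intervals given below cover counting error only.

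A miRNA is cut from a hairpin precursor as an arm of about the length of a small RNA read, the 5p or the 3p arm, and pairs with messenger RNAs through its seed, bases 2 to 8. Mir143 and Mir145a lie side by side and are known from smooth muscle, pericytes and fibroblasts, where they hold contractile cells in their differentiated state. Mir199a-2 and Mir214 are cut from Dnm3os, a noncoding RNA on the strand opposite to the dynamin gene Dnm3, which is needed for normal skeletal growth in mice and is active in mesenchyme under the transcription factor Twist1. Mir199a-1 and Mir199b are further copies of Mir199a-2 in the dynamin genes Dnm2 and Dnm1. In liver, miR-199a and miR-214 are known from hepatic stellate cells, the vitamin A-storing pericytes that make scar tissue when activated.

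The arms of the Mir199 copies and of Mir214 are shown because the count of each Mir199 gene depends on which letters set it apart from the other copies. Capitals mark the seed. Sequences are those of RefSeq on GRCm38.p6, except the 5p stretch of Mir199b, which is the best ungapped match of miR-199a-5p in the Mir199b hairpin.
miR-199a-5p (Mir199a-1 and Mir199a-2): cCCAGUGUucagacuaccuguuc
5p stretch of Mir199b: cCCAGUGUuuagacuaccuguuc
miR-199a-3p and miR-199b-3p (all 3 copies): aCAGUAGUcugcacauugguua
miR-214-5p: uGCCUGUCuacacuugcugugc
miR-214-3p: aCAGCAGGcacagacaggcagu
The seed of the 5p arm is the same in all 3 Mir199 copies. The 5p stretch of Mir199b differs from miR-199a-5p by C10U, counted from 1 at the 5′ end, outside the seed. The 3p arm is identical in the 3 copies. The seed of miR-214-3p is shared with miR-761, whose gene Mir761 had no count in either library, which allows up to 0.588 CPM in replicate 2 and 0.506 CPM in replicate 1 by the limit of 3 counts.

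The hairpins are shown with both arms in capitals, in the direction of the transcript. Apart from C10U in the 5p stretch of Mir199b, the letters that differ between copies lie in the lower-case flanks and loops.
Mir199a-1 (chr9:21496495-21496564, minus strand): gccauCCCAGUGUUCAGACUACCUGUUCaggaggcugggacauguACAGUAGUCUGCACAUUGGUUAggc
Mir199a-2 (chr1:162217814-162217923, plus strand): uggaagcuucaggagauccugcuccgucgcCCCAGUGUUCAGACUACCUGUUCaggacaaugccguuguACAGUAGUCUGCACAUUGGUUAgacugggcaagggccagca
Mir199b (chr2:32318460-32318569, plus strand): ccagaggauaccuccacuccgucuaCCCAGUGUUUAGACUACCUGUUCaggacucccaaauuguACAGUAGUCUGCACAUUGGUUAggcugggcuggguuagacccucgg
Mir214 (chr1:162223368-162223477, plus strand): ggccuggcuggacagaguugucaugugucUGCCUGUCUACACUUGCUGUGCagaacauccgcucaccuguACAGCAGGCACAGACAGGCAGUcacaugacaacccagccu
Over the aligned bases, Mir199a-1 was 86.8% identical to Mir199a-2 and 88.2% identical to Mir199b, and Mir199a-2 was 86.7% identical to Mir199b.

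Reads that fit several places in the genome were tallied apart and are in no gene's count. This tally held 28.2% of all reads in replicate 2 and 28.1% in replicate 1 and is not split by miRNA. Among the listed hairpins, miR-199a-3p occurs in 3 and miR-199a-5p in 2. Of the 6 words of 18 bases within miR-199a-5p, 0 are unique to 1 hairpin, and of the 5 words within the 3p arm, 0 are unique. All 6 words within the 5p stretch of Mir199b are unique to it, and each of them covers the base that differs. Both arms of Mir214 are unique among the listed hairpins, with 5 of 5 words each. A read of miR-199a-5p from Mir199a-2 becomes unique among these hairpins with 1 more base of the precursor at its 5′ end or 5 more at its 3′ end, and a 3p read with 5 more at its 5′ end or 2 more at its 3′ end. Counts are per hairpin, so the arm behind each count is not known. The counts of Mir199a-1 and Mir199a-2, and any 3p part of the Mir199b count, can thus miss reads of these miRNAs, and the levels are uncertain.

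**Figure D1:**
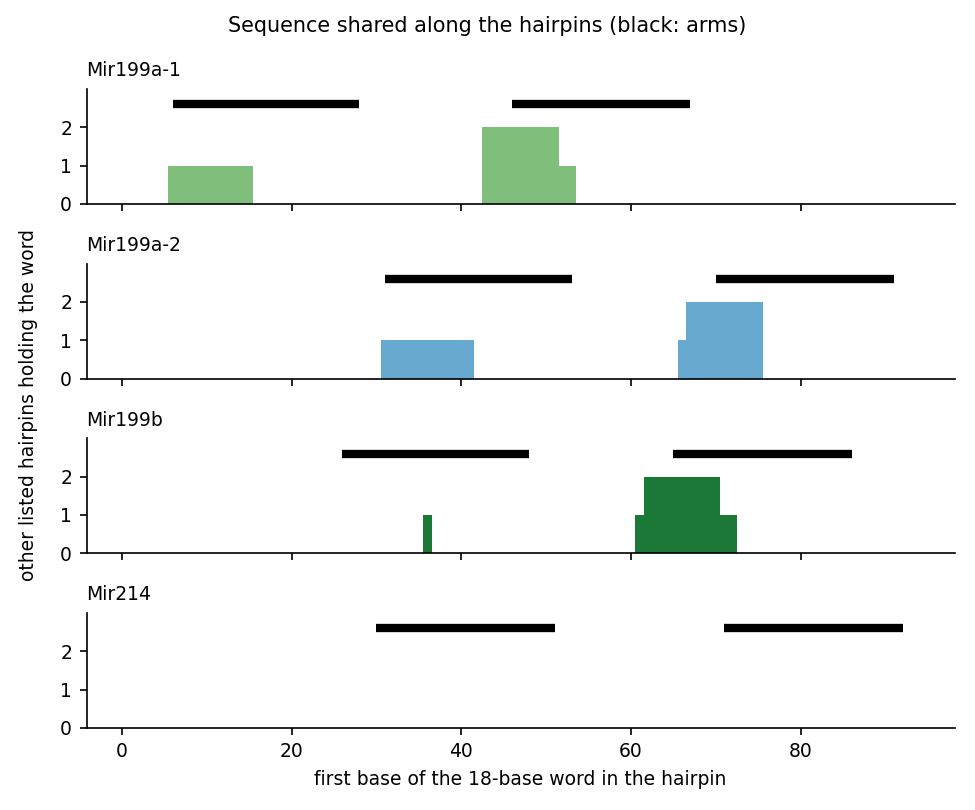
Number of other listed hairpins (y axis) that hold the 18-base word starting at each base of the hairpin (x axis) of Mir199a-1, Mir199a-2, Mir199b and Mir214, with black bars for the 2 arms. Shared words cover the arms of Mir199a-1 (21 of 53 words) and Mir199a-2 (21 of 93), mainly the 3p arm of Mir199b (13 of 93), and 0 of the 93 words of Mir214.

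By place, the members form 2 clusters and 2 lone genes. On mm10, Mir143 (ENSMUSG00000065445.2) lies on chromosome 18 at 61649196 to 61649258 and Mir145a (ENSMUSG00000065592.1) at 61647825 to 61647894. Both are on the minus strand, 1301 bases apart, and overlap no other gene of the annotation. None of the 46 words of the Mir143 hairpin and none of the 53 words of the Mir145a hairpin occurs in another listed hairpin. Mir199a-2 (ENSMUSG00000070126.1) and Mir214 (ENSMUSG00000065516.1) lie 5444 bases apart in exons of Dnm3os and, on the other strand, in an intron of Dnm3. Mir199a-1 (ENSMUSG00000065547.1) lies in an intron of Dnm2 and Mir199b (ENSMUSG00000092807.1) in an intron of Dnm1, each on the strand opposite to its dynamin gene. Mir214 had 0 counts on the opposite strand in replicate 2 and 3 in replicate 1, and the other 5 members had 0 in both.

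Together the 6 members held 1.82% of the sense-strand counts in replicate 2 and 1.62% in replicate 1 (1.72% ± 0.15, SD, n = 2). Almost all of this was Mir143, which made up 94.95% of the members' counts in replicate 2 and 93.1% in replicate 1. The other 5 members together held 0.0921% of the counts in replicate 2, with a 95% exact binomial (Clopper-Pearson) interval of 0.0895% to 0.0947%. They held 0.112% in replicate 1, with an interval of 0.109% to 0.115%. In both libraries the order of the counts was Mir143, Mir214, Mir145a, Mir199b, Mir199a-2 and Mir199a-1, and the values of neighbours in that order did not overlap. These shares and this order are of uniquely placed reads. The arms of Mir199a-1 and Mir199a-2 and the 3p arm of Mir199b have no word of their own. Their reads can be in the multimapping tally, so the amount of miR-199 beside miR-143 is not established by these counts. A read has about the length of an arm whatever the length of the hairpin, so levels were not divided by hairpin length.

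Mir143 represses regulators of smooth-muscle growth such as Elk1. It had 88404 counts (17326 CPM) in replicate 2 and 89301 counts (15059 CPM) in replicate 1, a mean of 16193 ± 1603 CPM (SD, n = 2). It ranked 15 among all gene rows in replicate 2 and 18 in replicate 1, in ranks that leave out the multimapping tally. By uniquely placed reads, Mir143 thus stood among the abundant miRNAs of the organ in both pools. The interval of its share of all counts ran over 1.72% to 1.74% in replicate 2 and over 1.496% to 1.52% in replicate 1. These intervals did not overlap, so the pools differed by more than counting error.

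Mir145a, which represses Klf4 and Klf5 in smooth muscle, had 1095 counts (215 CPM) in replicate 2 and 1142 counts (193 CPM) in replicate 1. Its mean was 204 ± 15.6 CPM (SD, n = 2), at rank 147 in replicate 2 and 153 in replicate 1. It thus lay above the median of the genes tested (38.3 CPM) and far below its cluster partner. Mir214, known to repress Ezh2 in mouse muscle cells, had 3073 counts (602 CPM) in replicate 2 and 4841 counts (816 CPM) in replicate 1. With a mean of 709 ± 151 CPM it had the second highest count of the members, at rank 104 in replicate 2 and 93 in replicate 1.

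The Mir199 copies had lower counts. Mir199b had 452 counts (88.6 CPM) in replicate 2 and 602 counts (102 CPM) in replicate 1, a mean of 95.1 ± 9.14 CPM. Mir199a-2 had 74 counts (14.5 CPM) in replicate 2 and 44 counts (7.42 CPM) in replicate 1, a mean of 10.96 ± 5.01 CPM. Mir199a-1 had 4 counts (0.784 CPM) in replicate 2 and 1 count (0.169 CPM) in replicate 1. A count of 3 equals 0.588 CPM in replicate 2, and 0.506 CPM in replicate 1. Mir199b, the copy whose 5p stretch is unique, thus had the most counts of the 3 copies in both libraries. Its count exceeded that of Mir199a-2 by 6.07-fold in replicate 2 (counting interval 4.77 to 7.92) and by 13.5-fold in replicate 1 (10.1 to 19.0). These are folds of uniquely placed reads and do not rank the transcription of the copies. Summed over the 3 copies, the counts came to 104 CPM in replicate 2 and 109 CPM in replicate 1.

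**Figure D2:**
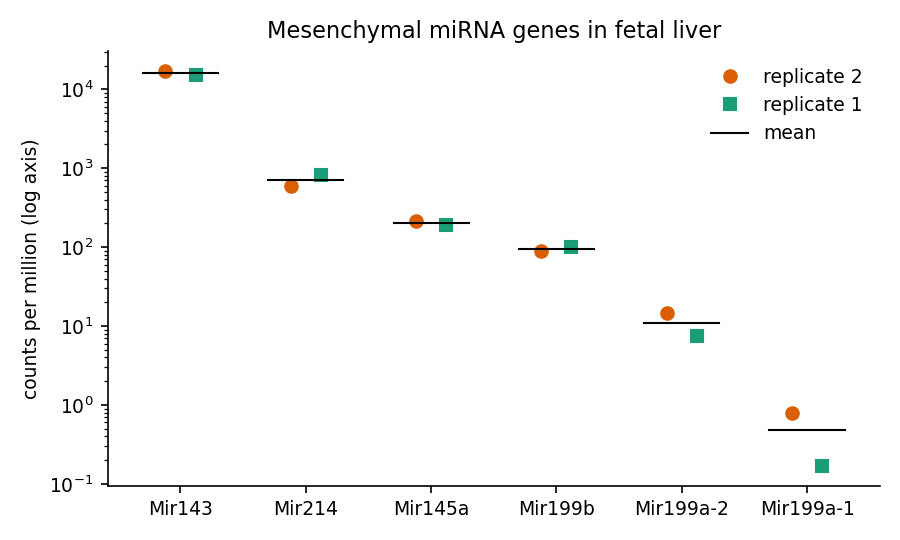
Level of each member in CPM on a log axis, with a circle for replicate 2, a square for replicate 1 and a line for their mean. The means run down from Mir143 at 16193 CPM to Mir199a-1 at 0.476 CPM, in the same order in both libraries.

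By its level over both libraries, Mir143 stood nearest to Mir30a (17156 CPM in replicate 2 and 14733 CPM in replicate 1) and to the erythroid Mir451a (17488 CPM in replicate 2 and 16467 CPM in replicate 1). Their distance, taken over log2(CPM + 0.5) in the 2 libraries, was 0.03 to Mir30a and 0.13 to Mir451a. Mir214 stood nearest to Mir25 (629 CPM in replicate 2 and 803 CPM in replicate 1; distance 0.07) and Mir455 (627 CPM in replicate 2 and 743 CPM in replicate 1; 0.15). In replicates 2 and 1, Mir145a stood nearest to Mir1981 (218 and 205 CPM; 0.09) and Mirlet7a-1 (197 and 195 CPM; 0.12), of which the last shares 27.3% of its words with other listed hairpins. In the same order of replicates, Mir199b stood nearest to Mir152 (87.6 and 102 CPM; 0.02) and Mir574 (79.6 and 103 CPM; 0.16), and Mir199a-2 to Mir217 (13.1 and 8.60 CPM; 0.24) and Mir6240 (14.9 and 8.94 CPM; 0.26). With 2 libraries these are genes of like level and ratio, and nothing more can be read from the likeness.

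**Figure D3:**
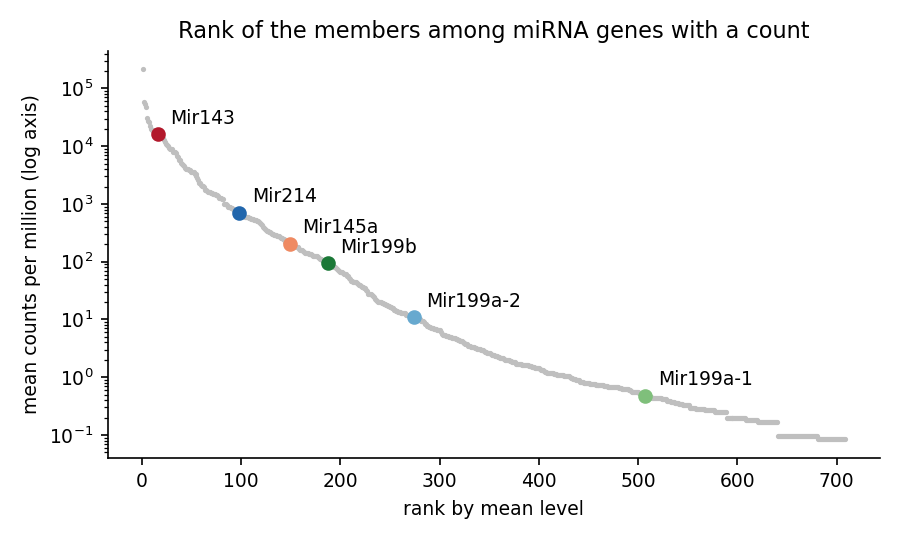
Mean level in CPM (log axis) against rank for all miRNA genes with a count, in grey, with the members in colour. Mir143 stands at rank 16, Mir214 at 98, Mir145a at 149, Mir199b at 187, Mir199a-2 at 274 and Mir199a-1 at 507. The ranks leave out reads in the multimapping tally.

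Mir143 had far more counts than its cluster partner Mir145a. Mir143 exceeded Mir145a by 80.7-fold in replicate 2 (counting interval 76.1 to 85.8) and by 78.2-fold in replicate 1 (73.8 to 83.0). The intervals overlapped, and the fold moved by 0.05 on the log2 scale between the pools. Neither hairpin shares a word with another listed one, so reads placed at several listed hairpins do not enter this fold. Mir214 exceeded Mir199a-2 by 41.3-fold in replicate 2 (33.0 to 53.0) and by 109-fold in replicate 1 (81.8 to 152). These intervals did not overlap, and in replicate 2 the fold fell by 1.40 on the log2 scale, relative to replicate 1. This is a fold of uniquely placed reads: neither arm of Mir199a-2 has a word of its own, and the multimapping tally held 6479 times the summed counts of the 3 Mir199 copies in replicate 2 and 6134 times in replicate 1. Which of Mir214 and Mir199a-2 was the more abundant miRNA is therefore not established by these counts. A bias between sequences in ligation or amplification that both libraries share would be in these folds and was not tested.

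These folds were set beside those of other neighbours: all pairs of adjacent listed hairpins on 1 strand, within 10 kb of each other, with 10 or more counts of both genes in each library. There were 102 such pairs, with a median fold of 8.13 (quartiles 2.50 and 33.3). Of them, 14 had a fold at least as large as Mir143 over Mir145a, that pair included, and 16 at least as large as Mir214 over Mir199a-2. The pair with the widest gap was Mir411 over Mir1197, at 11766-fold in replicate 2 and 14729-fold in replicate 1. Among the 65 pairs without a shared word in either hairpin, the median was 5.70, and 7 pairs reached the fold of Mir143 over Mir145a. Mir143 over Mir145a thus lay in the upper part of the range without being its end, whereas the place of Mir214 over Mir199a-2 rests on a count without the shared reads. Between the pools, the folds of the 102 pairs moved by a median of 0.19 on the log2 scale. A total of 86 pairs moved at least as much as Mir143 over Mir145a, whereas 2 pairs, that pair included, moved at least as much as Mir214 over Mir199a-2.

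**Figure D4:**
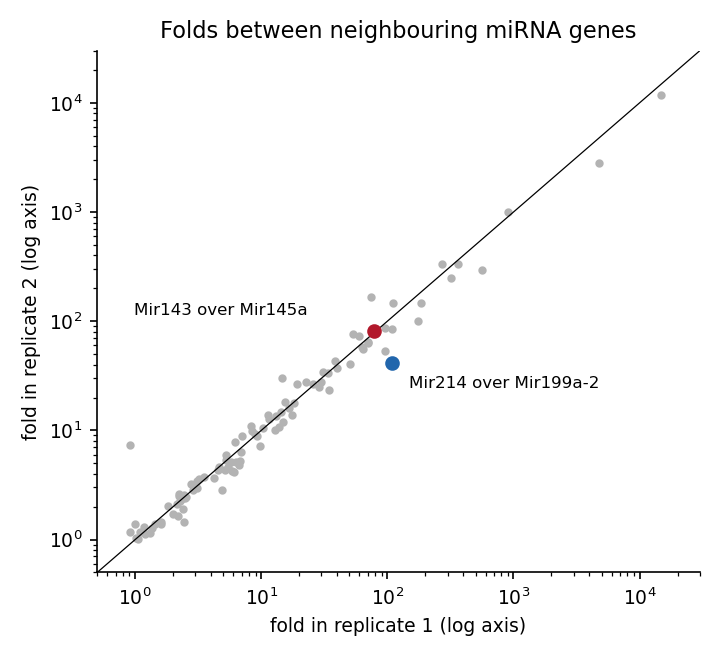
Fold between neighbouring miRNA genes in replicate 2 (y axis) against replicate 1 (x axis), both on log axes, for 102 pairs, with the line of equal folds. Mir143 over Mir145a lies on the line (80.7-fold in replicate 2 and 78.2-fold in replicate 1), and Mir214 over Mir199a-2 lies below it (41.3-fold in replicate 2 and 109-fold in replicate 1).

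Between the pools, the counts of the Mir143 cluster and of the Dnm3os genes did not all move in 1 direction. The exact test used here covers counting error only. Mir143 was higher in replicate 2 by 1.15-fold (log2 0.20, counting SE 0.01; exact binomial adjusted p = 1.83e-190). Mir145a was higher by 1.11-fold (log2 0.16, counting SE 0.06; exact binomial adjusted p = 0.026). Mir214 was lower in replicate 2, at 0.738 of the level in replicate 1 (log2 -0.44, counting SE 0.03; exact binomial adjusted p = 1.67e-39). The count of its cluster partner Mir199a-2 was higher by 1.95-fold (log2 0.96, counting SE 0.27; exact binomial adjusted p = 0.00115), on 74 counts in replicate 2 and 44 in replicate 1. Neither arm of Mir199a-2 has a word of its own, so this ratio is of uniquely placed reads only. It does not establish that the level of Mir199a-2 moved against that of Mir214. Mir199b had a log2 ratio of -0.20 (counting SE 0.09) and did not pass, with an exact binomial adjusted p of 0.066. Mir199a-1, with 5 counts in all, was below the filter of 10 counts and was not tested.

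Of the 5 members tested, 4 passed the exact test, 3 of them higher and 1 lower in replicate 2. Of all 440 genes tested, 196 passed (44.5%), with 77 higher (17.5%) and 119 lower (27.0%). The test covers counting error only, and deep genes pass it at small ratios: of the 189 genes with 1000 or more counts, 79.4% passed, and of the 4 members among them 3 did. The median size of the log2 ratio over the 440 genes was 0.27, and the spread between pools over all genes came to a biological coefficient of variation of 0.229, worth an SD of 0.47 on a log2 ratio. The ratios of Mir143, Mir145a, Mir199b and Mir214 lay within that SD. A total of 63.2% of tested genes had a log2 ratio at least as large in size as Mir143, 72.3% as Mir145a, 65.2% as Mir199b, 33.9% as Mir214 and 11.4% as Mir199a-2. TMM or DESeq2 scaling shifted every log2 ratio up by 0.08 or 0.07 and gave 96 genes higher and 98 lower with either. The direction of each member held under both.

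**Figure D5:**
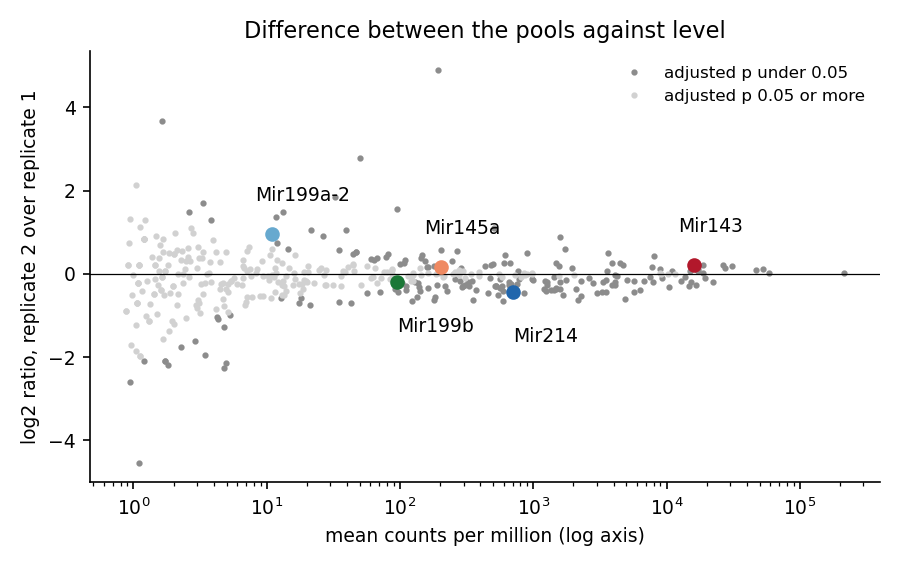
Log2 ratio of replicate 2 over replicate 1 (y axis) against mean level in CPM (x axis, log) for the 440 genes tested, dark where the adjusted p was under 0.05, with the 5 tested members in colour. Mir143 (0.20) and Mir145a (0.16) sit just above 0, Mir199b (-0.20) and Mir214 (-0.44) below it, and Mir199a-2 (0.96) higher, among genes of low count.

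Marker miRNAs of other cell types differed in how they stood between the same pools. All 5 epithelial and biliary genes passed as higher in replicate 2, against 17.5% of all genes tested. Each of them had 1000 or more counts over both libraries, where 79.4% of genes passed in either direction. They summed to 6376 CPM in replicate 2 and 4266 CPM in replicate 1, with Mir200c at 692 CPM in replicate 2 and 324 CPM in replicate 1. All 4 hepatocyte genes passed as higher too, while their sum was 220517 CPM in replicate 2 and 218324 CPM in replicate 1 (log2 0.01). Their ratios were unlike, at log2 0.009 for Mir122, 0.25 for Mir192, 0.18 for Mir194-2 and 1.85 for Mir194-1. Mir194-1 had 259 counts in replicate 2 and 83 in replicate 1, and the others had 1000 or more over both libraries. The endothelial Mir126a also passed as higher (48546 CPM in replicate 2 and 45470 CPM in replicate 1).

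Genes within the other lists also differed from each other. The erythroid genes summed to 27152 CPM in replicate 2 and 24071 CPM in replicate 1, but only Mir451a and Mir144 (log2 0.42) passed as higher. The third, Mir486, was lower, at 459 CPM in replicate 2 and 727 CPM in replicate 1 (log2 -0.66, exact binomial adjusted p = 6.67e-73). Of the 3 leukocyte genes, Mir223 passed as higher and Mir146 and Mir150 did not pass, and their sum was 17856 CPM in replicate 2 and 17081 CPM in replicate 1 (log2 0.06). Muscle genes with a row, 7 in all, summed to 2257 CPM in replicate 2 and 1300 CPM in replicate 1, of which Mir206 of skeletal muscle made up 2050 CPM in replicate 2 and 1104 CPM in replicate 1. Mir1a-1, with 1 count in replicate 2 and 0 in replicate 1, was not tested, and 18.3% of its words occur in other listed hairpins. Mir1a-2 had no row. Of the 4 muscle genes tested, Mir206 and Mir208b passed as higher. Mir499 (143 CPM in replicate 2 and 145 CPM in replicate 1) and Mir133b (12.2 CPM in replicate 2 and 14.8 CPM in replicate 1; log2 -0.28) did not pass. Mir133a-1 and Mir133a-2 were listed at 0 in both libraries, but 41.2% and 24.1% of their words occur in other listed hairpins, so reads of theirs can be in the multimapping tally and the 0 is not a level. The members summed to 18247 CPM in replicate 2 and 16177 CPM in replicate 1. Whether these cell types had a part in the differences of the members was not tested.

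Other miRNAs associated with fibroblasts, smooth muscle or cartilage did not share 1 direction. Of 25 listed names, 21 had a row and 20 were tested: 5 passed as higher in replicate 2 (25%, against 17.5% of all genes tested), 7 as lower (35%, against 27.0%) and 8 did not pass. With TMM or DESeq2 scaling, 8 passed as higher and 5 as lower. Their median log2 ratio was -0.01, beside -0.08 over all genes tested, and their median level 350 CPM, beside 38.3 CPM. The 3 most abundant were Mir21a, a miRNA raised in fibrosis (18974 CPM in replicate 2 and 18656 CPM in replicate 1), Mir22 (15311 CPM in replicate 2 and 14574 CPM in replicate 1) and Mir23b (9043 CPM in replicate 2 and 9056 CPM in replicate 1). Mir143 lay between Mir21a and Mir22 by mean level. Mir140, the cartilage miRNA, was lower in replicate 2 (3325 CPM, against 3707 CPM in replicate 1; log2 -0.16), as was Mir29a, a repressor of collagen genes (600 CPM, against 724 CPM in replicate 1; log2 -0.27). Mir708 was higher, at 88.8 CPM in replicate 2 and 67.1 CPM in replicate 1 (log2 0.40).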

How the data were processed

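Small RNA libraries (size range under 30 in the labels) were made from total RNA of 2 pools of mouse embryonic liver. Raw counts per gene were deposited by the authors as 3 columns without a header, on assembly mm10 with annotation GENCODE M4 per the text deposited with them. Which programs aligned and counted the reads, and whether molecular identifiers were used, is not given in the sources. The first column equalled the sum of the strand columns, and the strand column with the larger total was used. Reads in the multimapping tally are in no gene's count.

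Names and places were taken from GENCODE M21 by versionless identifier (1894 of 1973 rows). Mature arms came from RefSeq (GRCm38.p6) for 4 of the 6 members. Those of Mir143 and Mir145a were not at hand, so their seeds were not searched for in other genes. The row versions of Mir143 and Mir145a differ between M4 and M21, so the bounds used for counting may differ from those given. CPM were scaled to the sense-strand total of each library. A hairpin shares an 18-base word with another listed hairpin where the word occurs there on either strand.

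Genes with 10 or more counts over both libraries were compared by an exact conditional binomial test, two-sided, of the 2 counts (scipy 1.17.1), with Benjamini-Hochberg adjustment over all 440 genes and a threshold of 0.05. This test covers counting error only. Log2 ratios and folds carry a pseudocount of 0.5. The spread between pools was estimated as the common dispersion of edgeR 4.0.16 (R 4.3.3) without a contrast. Scaling by TMM and by DESeq2 1.42.0 size factors, other count filters, counts irrespective of strand and other totals were tried as alternatives. The exact test was checked on simulated counts with known changes. These held counting error only, so the check does not cover the spread between pools. The genes named are the 6 members, the 2 genes nearest to each tested member by distance of log2(CPM + 0.5), and markers of other cell types. Also named are the 3 highest genes of a list of other mesenchyme-associated miRNAs, and genes sharing a seed with a Mir199 gene or Mir214. Mir1197, Mir411, Mir708, Mir140 and Mir29a are named beside them, chosen after their values were seen. The members and lists were chosen with earlier results of these data known.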

Additional observations from a re-analysis of the deposited data

How the results depend on the processing

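The share of counts held by the 6 members (1.72%) was 2.19% over a total without Mir122 and 0.721% of all reads tallied, as the totals themselves imply, and 1.62% to 1.82% in single libraries. In the list of other mesenchyme-associated genes the balance turned: 8 were higher and 5 lower in replicate 2 with TMM factors, and likewise with DESeq2 size factors, against 5 higher and 7 lower by the total. Mir199b passed as lower in replicate 2 when genes of 100 or more counts were tested (log2 -0.20, exact binomial adjusted p = 0.048); its adjusted p was 0.060 to 0.303 under the others. Of 36 recomputed log2 ratios of the members, 0 changed sign, but a count filter leaves a ratio as it is and scaling shifts all ratios alike. Of 8 recomputed folds within the clusters 0 fell below 1. The settings tried could not have brought folds of this size below 1, so this is no test of them. The mean fold of Mir214 over Mir199a-2, 75.03, rests on unlike libraries: without replicate 1 it was 41.3 and without replicate 2 it was 109. A test between the pools cannot leave out a library. No paired analysis was possible because the study has 1 group. Mir199a-1, with 4 counts in replicate 2 and 1 count in replicate 1, has no stable level. Neither of its arms has a word of its own, so its reads can be in the multimapping tally.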
